A study of Mus musculus with 12 samples.

Results

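The 10 genes Trpv4, Trpv2, Trpm2, Trpm4, Trpm7, P2rx4, P2rx7, Piezo1, Kcnn4 and Hvcn1 encode ion channels that macrophages use to sense stretch, extracellular ATP, heat and oxidants, and were followed through RNA-seq of mouse macrophages and livers. They were taken by symbol from the deposited table of read counts, where each of the 10 had 1 row among 55335 genes, and all 10 passed the filter on low counts in the BMDMs and in the livers. The members were chosen by expression values of these same libraries, and since the contrast used was not recorded, every difference in the report counts as used and is given as a description, with counts of members past a threshold set beside the share of all genes. The question put to the data was how these channels differ between control and Tshr-deficient samples, and between macrophages and whole liver.

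The series held 12 libraries in 4 groups of 3. Bone-marrow-derived macrophages (BMDMs) came from 6-week-old male mice, were grown for 7 days with M-CSF (10 ng/mL), the growth factor that turns marrow progenitors into macrophages, and were treated with TSH (1 ng/mL) for 24 h in both genotypes. Livers came from males put on a high-fat diet (HFD) at 6 weeks of age, kept on it over 9 weeks, fasted for 8 h and killed 5 min after insulin (1.5 U/kg), again in both genotypes. The genotypes were littermates. Tshrf/f mice carried loxP-flanked Tshr alleles without Cre and served as controls, and TshrMKO mice carried the same alleles with Lyz2-Cre, which is active in macrophages, monocytes and neutrophils and leaves hepatocytes with their receptor. No library lacked TSH among the BMDMs, and none came from mice off the HFD or without insulin. A liver library pools hepatocytes with every other cell of the organ.

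Libraries held 28962878–40954211 counts, so that 3 counts in a library, taken here as the floor, amounted to 0.0733–0.104 CPM (read counts scaled to library size, counting error only). Tshr itself had 0–5 counts in the BMDMs and 0 in every liver, too few to check the genotypes. Lyz2, whose promoter drives the Cre, was at 6475–10962 CPM in Tshrf/f and 16181–22616 CPM in TshrMKO BMDMs. In livers, as labelled, Lyz2 was at 24.7, 62.7 and 46.4 CPM in Tshrf/f and 1.59, 111 and 42.7 CPM in TshrMKO. TshrMKO liver replicate 1 thus lay far below the other livers, and why was not tested. The 6 hepatocyte markers (Alb, Apoa1, Ttr, Hnf4a, Cps1 and Tat) summed to 0–0.0848 CPM in BMDMs and to 60820–97109 CPM in livers. The 10 macrophage markers, among them Adgre1, Csf1r, Cd68 and Lyz2, summed to 13601–19145 CPM in Tshrf/f and 23175–30793 CPM in TshrMKO BMDMs. Without Lyz2 the other 9 summed to 6898–8182 and 6994–8177 CPM, ranges that overlapped. In livers the same 9 markers summed to 105–320 CPM in Tshrf/f and 98.2–235 CPM in TshrMKO. Of the BMDMs, Tshrf/f replicate 3 stood apart with a TMM scaling factor of 0.738 against 0.993–1.11 in the other 5, and the results that rest most on it are also given without it. Lyz2 and all marker levels are in CPM without these factors, while CPM of the channels and listed genes are TMM-scaled unless stated. Among the BMDMs these scales differ most for Tshrf/f replicate 3. For livers, the group names used are those of the sample labels. All 72 liver values of a receptor table in the study's supplement equalled a count of a library labelled as the other group, and 8 of them also equalled one of their own heading, so every liver direction in the report holds for the labels and turns if the liver group names are exchanged.

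TRP channels are tetrameric cation channels that let calcium and sodium into the cell. TRPV4 opens on warmth, cell swelling and lipid messengers and has been tied to stiffness sensing and phagocytosis in macrophages, while TRPV2 is the most abundant vanilloid channel of many immune cells. TRPM2 is opened by ADP-ribose during oxidative stress, TRPM4 passes sodium and not calcium once calcium has risen, and TRPM7 joins a magnesium-permeable pore to a kinase. P2X4 and P2X7 are ATP-gated channels, P2X7 being the one whose opening lets potassium out and activates the NLRP3 inflammasome. PIEZO1 opens on membrane tension, KCNN4 (KCa3.1) lets potassium leave on a rise in calcium, and HVCN1 is the voltage-gated proton channel that balances the charge moved by the NADPH oxidase.

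In BMDMs the range of levels across the list was wide. Levels are given per kilobase of exon, with the exons of all annotated transcripts of a gene merged. On this scale Hvcn1 was at 89.7 ± 41.5 CPM per kb (SD, n = 3) in Tshrf/f BMDMs. P2rx4 was at 57.3 ± 9.58, and the ranges of Hvcn1 and P2rx4 overlapped. Piezo1 (24.9 ± 6.93) and Trpv2 (24.6 ± 2.67) followed, below P2rx4 in every library. P2rx7 (12.5 ± 6.68) and Trpm7 (11.1 ± 0.60) overlapped with each other and lay below Trpv2. Trpm2 (7.14 ± 2.62), Kcnn4 (3.78 ± 1.90), Trpv4 (2.35 ± 0.22) and Trpm4 (1.96 ± 1.13) came last, with each range overlapping the next. In TshrMKO BMDMs P2rx4 (62.1 ± 1.97) and Hvcn1 (57.8 ± 2.75) were again the highest and overlapped. P2rx7 (25.7 ± 6.56) lay with Trpv2 (26.2 ± 0.59) and Piezo1 (24.1 ± 3.89) in this group, and Trpv4 (5.41 ± 0.43) was above Trpm4 (1.22 ± 0.12) without overlap. The 3 TRPM genes thus spanned a wide range in the same cells, with Trpm7 and Trpm2 above Trpm4. The order of other genes depends on the length used, which can exceed that of a single transcript. In CPM without TMM or division by length, P2rx4 (377) lay above Hvcn1 (284) in Tshrf/f BMDMs. There Trpm7 (118) also lay above Trpv2 (106), and Trpm4 (18.7) above Trpv4 (9.02).

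**Figure D1:**
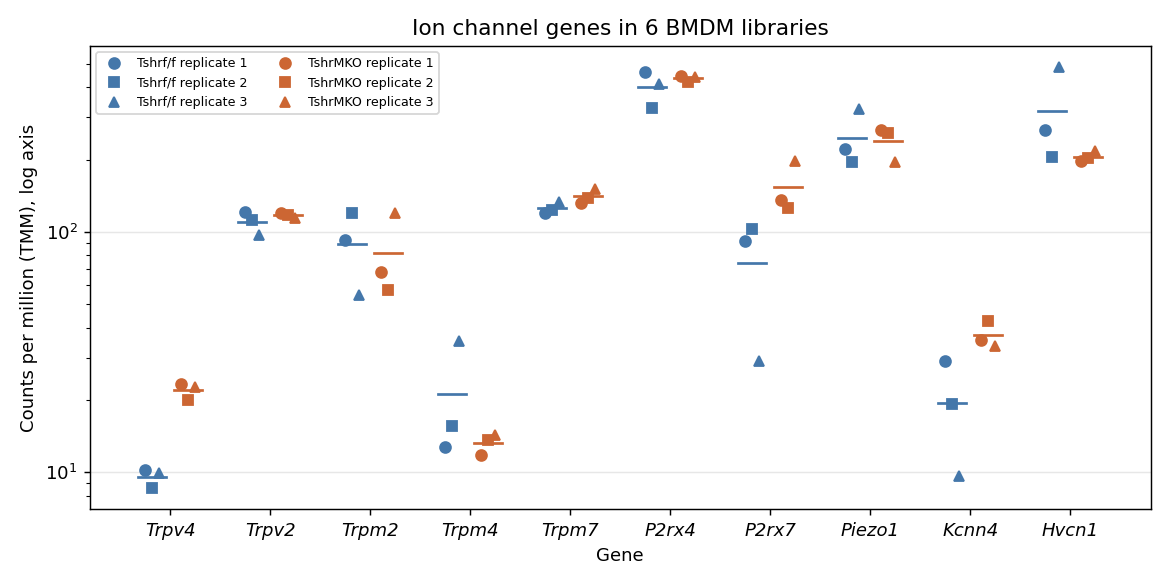
CPM (TMM-scaled, log axis) of the 10 genes in each of the 6 BMDM libraries. Points are libraries with 1 symbol per replicate, bars are group means, blue is Tshrf/f and orange TshrMKO. Trpv4, P2rx7 and Kcnn4 are the genes whose groups do not overlap, and the blue triangle, Tshrf/f replicate 3, is the extreme library for 7 of the 10.

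Trpv4 (ENSMUSG00000014158, chromosome 5, 114622152–114658421, minus strand, GRCm38) had 408, 375 and 259 counts in Tshrf/f BMDMs and 895, 751 and 943 in TshrMKO BMDMs. Scaled, these were 10.2, 8.59 and 9.95 CPM against 23.4, 20.0 and 22.7 CPM. Every TshrMKO library lay above every Tshrf/f library, and the spread within each group was small beside the gap between them. The log2 fold change (TshrMKO over Tshrf/f) was 1.20 (SE 0.14), a fold of 2.30, and stayed between 1.13 and 1.27 with any 1 library left out. It was 1.19 to 1.38 under the other scalings, filters and models, and the library that stood apart did not carry it.

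P2rx7 (ENSMUSG00000029468, chromosome 5, 122643911–122691432, plus strand) was at 91.8, 103 and 29.03 CPM in Tshrf/f BMDMs and 137, 126 and 199 CPM in TshrMKO BMDMs. The groups did not overlap, and the lowest value was that of Tshrf/f replicate 3. The log2 fold change was 1.04 (SE 0.47), or 0.66 without that library. Kcnn4 (ENSMUSG00000054342, chromosome 7, 24370263–24386690, plus strand) was at 29.1, 19.3 and 9.64 CPM against 35.6, 42.8 and 33.4 CPM. Again the groups were apart and Tshrf/f replicate 3 was lowest, with a log2 fold change of 0.94 (SE 0.38), or 0.62 without it.

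Hvcn1 (chromosome 5, 122206804–122242297) and Trpm4 (chromosome 7, 45302632–45333780) leaned the other way, through that same library. Hvcn1 was at 266, 206 and 487 CPM in Tshrf/f BMDMs and 198, 204 and 217 CPM in TshrMKO BMDMs, a log2 fold change of −0.63 (SE 0.33) that became −0.20 without Tshrf/f replicate 3. Trpm4 was at 12.8, 15.6 and 35.3 CPM against 11.8, 13.6 and 14.3 CPM, a log2 fold change of −0.68 (SE 0.39), or −0.10 without it. For both genes the groups overlapped. Tshrf/f replicate 3 held the highest value of 3 of the 10 genes and the lowest value of 4, so its distance from the other libraries was not in 1 direction.

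The other 5 genes stayed close to 0 in log2 fold change. Trpm7, at 120.1, 123.1 and 133.1 CPM in Tshrf/f and 132.6, 138.6 and 151.3 CPM in TshrMKO BMDMs, differed by 0.17 (SE 0.13). P2rx4, at 462, 329 and 415 against 446, 421 and 443 CPM, differed by 0.12 (SE 0.18). Trpv2, the closest relative of Trpv4 on the list, was at 121, 112 and 97.4 against 120, 118 and 115 CPM and differed by 0.10 (SE 0.13). Piezo1 (221, 195 and 325 against 266, 258 and 195 CPM) differed by −0.05 (SE 0.25). Trpm2 (92.3, 120 and 54.8 against 68.2, 57.4 and 120 CPM) differed by −0.12 (SE 0.38), with a wide scatter inside both groups. Of these, Piezo1, Trpm2 and P2rx4 changed sign under some settings. Piezo1 shares 2441 exon bases with Ctu2 and Hvcn1 1574 with Tctn1, both on the opposite strand. The libraries were strand-specific but how strand was handled in the counting is not given in the sources used here, and Ctu2 and Tctn1 had at most 606 and 529 counts in any library.

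Counted over the list, 3 of the 10 genes had BMDM groups that did not overlap, all 3 higher in TshrMKO, where 28.7% of the 15372 tested genes did not overlap and 14.8% were apart and higher. At an adjusted p under 0.05 (edgeR quasi-likelihood, Benjamini–Hochberg over all genes) 0 of the 10 were called, as were 0% of all genes, with 2 of the 10 at an unadjusted p under 0.05, against 17.9% of all genes, and 1 called by DESeq2 after adjustment, against 7.96%. At the thresholds in the methods of the study, an unadjusted p under 0.05 with a fold of at least 2, 1 gene passed, Trpv4, against 8.82% of all genes, 3.3% of them higher and 5.52% lower. The list had a median log2 fold change of 0.11 and all tested genes 0.01. These counts lie near the background, and the members had been picked with the results known.

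**Figure D2:**
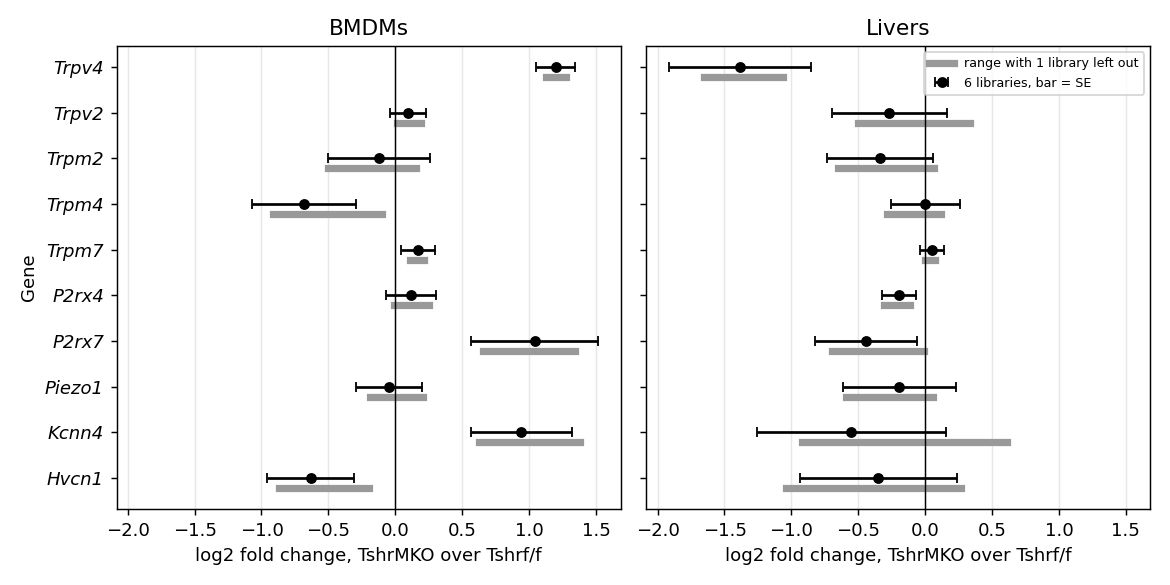
log2 fold change of TshrMKO over Tshrf/f for the 10 genes in BMDMs (left) and livers (right). Points are fits to 6 libraries with SE bars, and grey bars span the values with 1 library left out. In BMDMs the grey bar of Trpv4 runs from 1.13 to 1.27, and in livers from −1.65 to −1.06.

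To show the letters upstream of the 3 genes whose BMDM groups were apart, the bases before their RefSeq start sites (GRCm38.p6) are printed 5′ to 3′ on the strand of the gene. Capitals mark matches to 4 motifs searched on both strands in the 250 bases before each start site: GAGGAA (the core bound by PU.1, the macrophage master regulator), TGANTCA (AP-1), a short form of the NF-κB site (GGGA and CC parted by any 4 bases) and TGACGTCA (the cAMP response element). For P2rx7 the last 16 bases of the window lie in an annotated exon and are left out.
Trpv4, chr5:114658422-114658671, minus strand: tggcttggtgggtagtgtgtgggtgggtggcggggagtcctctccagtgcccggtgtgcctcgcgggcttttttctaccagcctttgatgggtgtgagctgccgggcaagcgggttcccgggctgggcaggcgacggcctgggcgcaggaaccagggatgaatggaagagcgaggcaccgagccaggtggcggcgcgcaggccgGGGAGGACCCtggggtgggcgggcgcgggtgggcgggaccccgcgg
P2rx7, chr5:122643677-122643910, plus strand: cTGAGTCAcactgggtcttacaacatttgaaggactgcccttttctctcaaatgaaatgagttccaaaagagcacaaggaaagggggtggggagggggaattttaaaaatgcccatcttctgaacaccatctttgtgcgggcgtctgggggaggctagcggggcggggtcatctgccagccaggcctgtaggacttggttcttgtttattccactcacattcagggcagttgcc
Kcnn4, chr7:24370013-24370262, plus strand: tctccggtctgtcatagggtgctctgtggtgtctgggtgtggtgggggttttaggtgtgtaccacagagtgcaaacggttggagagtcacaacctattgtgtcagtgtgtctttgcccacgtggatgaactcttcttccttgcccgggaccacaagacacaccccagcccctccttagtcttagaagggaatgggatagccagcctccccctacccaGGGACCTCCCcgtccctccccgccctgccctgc

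The Trpv4 window held 1 NF-κB match, at position −46 counted from the start site, and Kcnn4 1 at position −33, a motif held by 17.6% of all 32851 promoter windows. P2rx7 held 1 AP-1 match at the far end of its printed window, position −249, a motif in 6.75% of windows. Another RefSeq window of P2rx7, starting at 122650133, held none of the 4 motifs. No window of these 3 held GAGGAA (23.3% of all windows) or TGACGTCA (1.55%). The Trpv4 window was the richest of the 3 in G and C, at 72%, against 58.8% for Kcnn4, 53.6% for P2rx7 and a median of 52.4% over all windows. Of the other members with a RefSeq window, Trpm7 held an NF-κB match and Trpv2 both an NF-κB match and GAGGAA, while P2rx4, Piezo1 and Trpm2 held none of the 4. Trpv2 had several windows, and the one starting at 62575377 lacked GAGGAA. For the Trpm7 and Trpm2 windows the bases after the start site were not matched to a transcript of the gene. No motif was shared by all 3 genes whose BMDM groups were apart. No RefSeq window was matched for Trpm4 and Hvcn1.

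Of the 10 genes, 4 lie on chromosome 5, and 3 of them, Hvcn1, P2rx7 and P2rx4, in a stretch of 523 kb, with P2rx7 and P2rx4 16111 bases apart. These neighbours did not have like values across genotypes in BMDMs, with log2 fold changes of 1.04 for P2rx7, 0.12 for P2rx4 and −0.63 for Hvcn1.

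In livers the counts were far lower and the order differed. P2rx4 was highest at 9.03 ± 1.24 CPM per kb in Tshrf/f and 7.89 ± 0.73 in TshrMKO livers, followed without overlap by Trpm7 (3.04 ± 0.16 and 3.15 ± 0.16) and then Trpm2 (1.73 ± 0.84 and 1.37 ± 0.40). P2rx7, Piezo1, Trpv2, Hvcn1 and Trpm4 lay between 0.35 and 0.84 CPM per kb, mostly with overlapping ranges. Trpv4 (0.24 ± 0.10 and 0.09 ± 0.04) and Kcnn4 (0.21 ± 0.20 and 0.15 ± 0.06) were lowest in both genotypes.

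Trpv4 was also the gene of the list that differed most between genotypes in liver, and as labelled the direction was the other one from BMDMs. It had 17, 49 and 30 counts in Tshrf/f livers and 16, 8 and 14 in TshrMKO livers, or 0.575, 1.35 and 0.995 CPM against 0.447, 0.190 and 0.496 CPM. The groups did not overlap, but Tshrf/f replicate 1 and TshrMKO replicate 3 differed by only a few counts after scaling. The log2 fold change was −1.38 (SE 0.53) and lay between −1.65 and −1.06 with a library left out. Sample IDs of the livers begin with A or B, which the labels do not explain. The A livers were at 0.575 and 1.35 CPM (Tshrf/f) and 0.496 CPM (TshrMKO). The B livers were at 0.995 CPM (Tshrf/f) and 0.447 and 0.190 CPM (TshrMKO). Since the groups did not overlap, the order within each letter was fixed beforehand and adds nothing. With the letter as covariate the log2 fold change was −1.31, and Trpv4 no longer passed the thresholds of the study. In a bulk liver, fewer cells of a type and less RNA per cell cannot be told apart.

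The other members overlapped between genotypes in liver. P2rx7 was at 3.08, 7.61 and 4.31 CPM in Tshrf/f and 3.60, 4.74 and 2.69 CPM in TshrMKO livers, a log2 fold change of −0.44 (SE 0.38). Kcnn4, at 0.440, 2.29 and 0.531 CPM against 0.475, 1.05 and 0.708 CPM, gave −0.55 (SE 0.70), which turned to 0.61 without Tshrf/f replicate 2. P2rx4 gave −0.19 (SE 0.13) and Trpm7 0.05 (SE 0.09), the smallest SEs of the list, while Trpm4 was at −0.00 (SE 0.26). Hvcn1 (−0.35, SE 0.59), Trpm2 (−0.34, SE 0.39), Trpv2 (−0.27, SE 0.43) and Piezo1 (−0.19, SE 0.42) were below 0 by less than their SE. Tshrf/f replicate 2 held the highest value of 7 of the 10 genes, and the sum of the 9 macrophage markers was also highest in it, at 320 CPM. Without this library Kcnn4, Trpv2, Hvcn1, Trpm2 and Piezo1 all had log2 fold changes above 0, and what the marker level contributed was not tested. Over the list, 1 of 10 passed the thresholds of the study, Trpv4, against 1.55% of the 15062 genes tested (0.856% lower), and 1 of 10 had groups apart, against 17.3% (7.74% lower). That call was lost without Tshrf/f replicate 2 or 3, or without TshrMKO replicate 1 or 2. At an adjusted p under 0.05, edgeR and DESeq2 each called 0 of the 10 (edgeR called 0% of all genes and DESeq2 1.79%), and 1 of the 10 had an unadjusted p under 0.05, against 10.5% of all genes. The list's median log2 fold change was −0.30, against −0.01 for all genes.

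**Figure D3:**
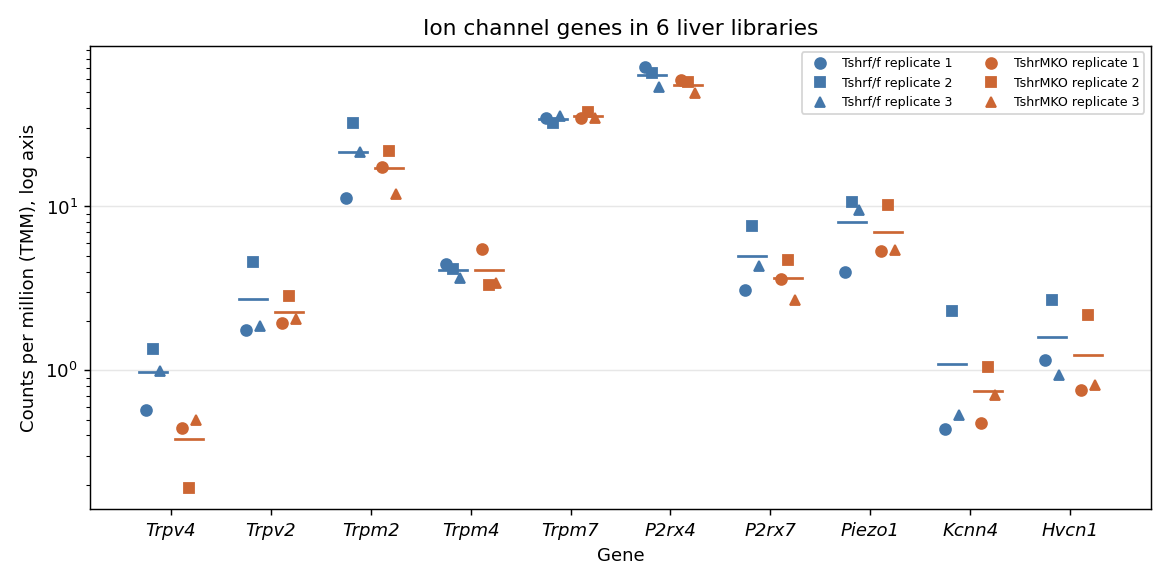
CPM (TMM-scaled, log axis) of the 10 genes in each of the 6 livers. Points are libraries with 1 symbol per replicate, bars are group means, blue is Tshrf/f and orange TshrMKO. Only Trpv4 has groups that do not overlap, and the blue square, Tshrf/f replicate 2, is the highest for 7 of the 10.

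Ratios within a library do not depend on scaling between libraries. Per exon length, Trpv4 reached 9.30%, 8.45% and 11.2% of Trpv2 in Tshrf/f BMDMs and 21.4%, 18.6% and 21.8% in TshrMKO BMDMs. In livers it reached 36.0%, 32.3% and 58.9% of Trpv2 in Tshrf/f and 25.2%, 7.40% and 26.6% in TshrMKO. In both kinds of sample the genotypes were apart, in opposite directions as the livers are labelled and in the same direction if the liver names are exchanged. Set against the 9 macrophage markers without Lyz2, Trpv4 had 1.47, 1.17 and 1.03 counts per 1000 marker counts in Tshrf/f BMDMs and 3.39, 3.19 and 2.82 in TshrMKO BMDMs, again without overlap. In livers it had 4.87, 4.42 and 5.03 against 2.47, 0.841 and 4.92, where TshrMKO replicate 3 lay within the Tshrf/f range. The ratio of the group means, TshrMKO over Tshrf/f, was 2.56 in BMDMs and 0.575 in livers, a scale chosen after seeing the data. On this scale the liver groups of Trpv4 therefore overlapped, while the BMDM groups of P2rx7 (13.2, 14.03 and 3.01 against 19.8, 20.1 and 24.6) stayed apart, those of Trpm7 (17.3, 16.8 and 13.8 against 18.7–22.1) came apart, higher in TshrMKO, and those of Kcnn4 (4.19, 2.63 and 1.00 against 5.17, 6.81 and 4.14) came to overlap. Cd14, 1 of the 9 markers, was at 384, 565 and 2072 CPM in Tshrf/f and 172, 150 and 383 CPM in TshrMKO BMDMs. It raised the marker sum of Tshrf/f replicate 3 and so lowered the ratios of that library. P2rx7 relative to its neighbour P2rx4, per exon length, was at 23.4%, 36.8% and 8.23% in Tshrf/f BMDMs. In TshrMKO BMDMs it was at 36.1%, 35.3% and 52.7%, and the groups overlapped.

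**Figure D4:**
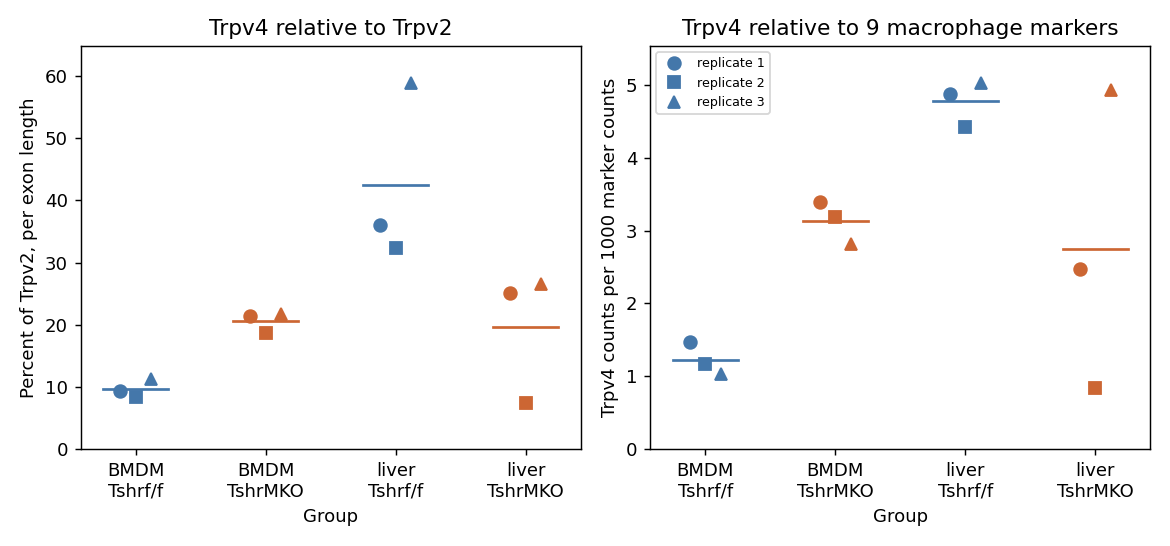
Trpv4 as a percent of Trpv2 per exon length (left) and in counts per 1000 counts of 9 macrophage markers without Lyz2 (right), 1 point per library with bars at group means, blue Tshrf/f and orange TshrMKO. In BMDMs TshrMKO is above Tshrf/f in both panels, and in livers, as labelled, it is below, except for TshrMKO replicate 3 on the right.

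Fitted over all 12 libraries, the difference between the genotype effect in BMDMs and that in liver was 2.60 (SE 0.48, log2) for Trpv4, 1.50 (SE 0.83) for Kcnn4 and 1.48 (SE 0.66) for P2rx7. The other 7 members lay between −0.69 (Trpm4) and 0.36 (Trpv2). Trpv4 and P2rx7 were past the thresholds of the study, 2 of 10 against 8.03% of the 17246 genes tested (4.07% higher), and at an adjusted p under 0.05 edgeR called 0 of the 10 and 0.0058% of all genes, while DESeq2 called 1 of the 10 and 4.49% of all genes. With the liver group names exchanged the Trpv4 difference would be −0.18, since its liver value would then be 1.38, of the same sign as in BMDMs.

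BMDMs and livers differed in culture, diet, hormone and cell mixture at once, and these cannot be told apart. Within Tshrf/f all 10 members were higher in BMDMs, 10 of 10 at an adjusted p under 0.05 (edgeR), where 69.3% of all genes were called and 32.7% were higher. Within TshrMKO 9 of 10 were called, against 68.5% (31.8% higher), with Trpm4 left out at a log2 difference of 0.80 (SE 0.36). The calls of Trpm2, at 1.15 in Tshrf/f and 1.37 in TshrMKO, depended on single libraries, and that of Trpm4 on single libraries and on scaling. Hvcn1 had the largest difference, with livers at 0.921% of the BMDM level in Tshrf/f and 1.12% in TshrMKO. Trpv2 came next in Tshrf/f, at 4.6%, and was at 3.59% in TshrMKO, and Piezo1 was at 6.00% and 5.44%. Trpm7 had the smallest difference in Tshrf/f, with livers at 50.6% of BMDMs, and Trpm2 (45.0%) and Trpm4 (35.5%) came next. For Trpv4 livers were at 18.8% of BMDMs in Tshrf/f and 3.15% in TshrMKO as labelled, and with the liver names exchanged these would be 7.29% and 8.12%. With library size alone as the scale, every BMDM excess grew, that of Trpv4 in Tshrf/f from 2.40 to 3.19 in log2.

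**Figure D5:**
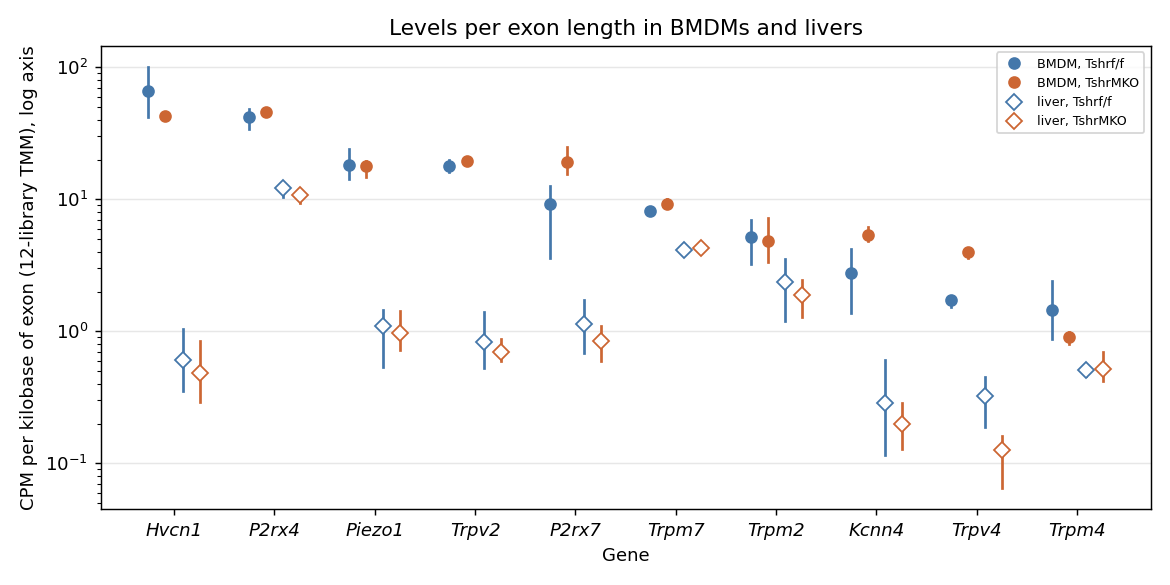
Levels of the 10 genes in CPM per kb of exon (log axis), scaled over all 12 libraries, ordered by Tshrf/f BMDMs. Symbols are means of 3 libraries and lines run from the lowest to the highest library, circles for BMDMs and diamonds for livers. Hvcn1 has the widest gap between BMDMs and livers and Trpm7 one of the narrowest.

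The genes most like Trpv4 over the 6 BMDM libraries, by Pearson's r of log2 CPM, were Arfgef2 (0.99), Nckap1l (0.99), Socs6 (0.99), Gm9449 (0.99) and Slc66a2 (0.99), each higher on average in TshrMKO. With 6 points in 2 groups, 267 of 15371 genes exceeded an r of 0.9. Over the 6 livers they were Pik3ip1 (1.00), Rilpl1 (0.99), Lmbr1l (0.99), Brox (0.98) and Prelid2 (0.98), with 65 genes above 0.9. The members themselves ran from an r with Trpv4 of −0.52 (Hvcn1) to 0.76 (Trpm7) in BMDMs, and from −0.76 (Trpm7) to 0.42 (P2rx7) in livers. All values of r share the libraries and their scaling.

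The counts in the lists that follow stand beside shares over all 15372 genes tested in BMDMs. Of these, 8.82% were past the thresholds of the study (3.3% higher and 5.52% lower), and 17.9% had an unadjusted p under 0.05 in edgeR. The lists are short, so a few genes past the thresholds are not read as a result about a list. Of the other channels and partners in BMDMs, 9 of 23 further TRP genes passed the filter. Those past the thresholds, all lower in TshrMKO, included Mcoln2, an endolysosomal cation channel. Mcoln2 was at 102.3, 63.9 and 347 CPM in Tshrf/f and 46.2, 45.8 and 43.0 CPM in TshrMKO BMDMs, a log2 fold change of −1.93 (−0.88 without Tshrf/f replicate 3), and without that library 0 of the 9 passed. Among 7 genes for proteins that bind or traffic TRPV4, such as Itgb1 (−0.81, SE 0.37, −0.31 without that library) and Rhoa (−0.23, SE 0.19), none passed. In edgeR 0 of them had an unadjusted p under 0.05. A further 4 mechanosensitive channel genes were tested and 0 passed, with 2 at an unadjusted p under 0.05 in edgeR (Tmem63a −0.45 and Tmem63b −0.35).

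Purinergic receptors moved in both directions. Of 9 tested besides P2rx4 and P2rx7, P2ry1 and P2ry6, receptors for ADP and UDP, were higher past the thresholds, and P2ry2 (−1.46, −0.43 without Tshrf/f replicate 3), P2ry10 (−1.07, −0.88 without it) and P2ry13 (−1.62, −0.82 without it) were lower. P2ry6 was at 56.8, 67.1 and 22.8 CPM in Tshrf/f and 109, 93.2 and 114 CPM in TshrMKO BMDMs, a log2 fold change of 1.11 (SE 0.38, 0.77 without Tshrf/f replicate 3). P2ry1 was at 6.35, 3.82 and 0.922 against 16.6, 16.8 and 11.1 CPM, a log2 fold change of 1.99 (SE 0.62, 1.55 without it). Downstream of ATP, 3 of 9 genes of its release and breakdown were lower, against 5.52% of all genes, and none higher. They were the adenosine receptors Adora2a (−3.70, SE 0.86, −2.34 without Tshrf/f replicate 3) and Adora2b (−2.30, SE 0.68, −1.24 without it), and the connexin Gja1 (−2.35, SE 0.73, −1.20 without it). Without that library 1 purinergic receptor gene was past the thresholds, higher, and again 3 genes of ATP release and breakdown, lower. Over all genes, 828 of 15925 were past the thresholds without that library, against 1356 of 15372 with it. These totals apply to every list count given without that library.

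Beside Kcnn4, 9 potassium channel genes were tested and Kcna3, the voltage-gated channel Kv1.3, was lower past the thresholds (8.18, 13.6 and 32.5 against 4.96, 3.57 and 6.96 CPM, log2 fold change −1.80, −1.08 without Tshrf/f replicate 3). Kcnk13 and Kcnk6, two-pore leak channels, were at 0.89 (SE 0.28, 0.62 without that library) and 0.83 (SE 0.31, 0.54 without it) and did not reach the fold of 2. Beside Hvcn1, 3 of 13 proton and chloride genes were lower, Clcn7 (−1.16, −0.70 without Tshrf/f replicate 3), Clic4 (−1.67, −0.77 without it) and the volume-regulated anion channel subunit Lrrc8c (−2.35, SE 0.56, −1.61 without it), and none higher, a count of 1 lower without that library. Of the 7 NADPH oxidase genes, whose charge HVCN1 balances, all had log2 fold changes below 0. They ran from −0.95 (Cybb, −0.52 without Tshrf/f replicate 3) to −0.04 (Rac1, 0.06 without it). Of these genes 0 passed the thresholds, with 2 at an unadjusted p under 0.05 in edgeR. In the NLRP3 inflammasome list, 2 of 8 genes passed, Nlrp3 (−2.34, SE 0.78, −1.24 without Tshrf/f replicate 3) and Il1b (−6.11, SE 2.01, −3.41 without it), both lower in TshrMKO, and 0 of 8 passed without that library.

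In the calcium pathway, 1 of 12 store-operated entry genes passed, Orai2, lower (145, 95.8 and 353 against 55.8, 50.4 and 66.1 CPM, log2 fold change −1.79, −1.07 without Tshrf/f replicate 3). Of 14 calcineurin and NFAT genes Nfatc2 (18.5, 18.9 and 2.96 against 51.6, 44.5 and 69.4 CPM, log2 fold change 2.03, 1.56 without it) and the calcineurin regulator Rcan1 (13.8, 15.8 and 13.2 against 23.4, 23.4 and 40.9 CPM, 1.03, 0.98 without it) were higher, and the calcineurin subunit Ppp3cc (−1.15, −0.74 without it) was lower, and without that library 1 gene passed, higher. Rcan1, like Trpv4, kept its value without the library that stood apart. Over the 11 lists the median log2 fold change ran from −0.85 (NLRP3 inflammasome) to 0.42 (potassium channels), against 0.01 for all genes, and from −0.71 (ATP release and breakdown) to 0.39 without Tshrf/f replicate 3. In livers no gene of these lists passed the thresholds, with list medians between −0.39 (purinergic receptors) and 0.08 (TRP channels). Among markers of other cells, 1 summed list was apart between genotypes in BMDMs, that of cholangiocytes (253–554 against 843–1422 CPM), carried by Spp1, which macrophages also express. The 7 neutrophil markers summed to 7.25, 34.7 and 36.0 CPM in Tshrf/f and 5.34–10.6 CPM in TshrMKO BMDMs, and the 5 T cell markers to 7.43–23.6 and 6.23–24.0 CPM. The 5 stellate cell markers summed to more, at 517, 1497 and 388 CPM in Tshrf/f and 327–616 CPM in TshrMKO BMDMs. Of these, Col1a1 alone was at 1243 CPM in Tshrf/f replicate 2, and its source was not tested.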

How the data were processed

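RNA from 6 BMDM cultures and 6 livers had been sequenced on a NovaSeq instrument from strand-specific libraries. The deposited values are read counts per gene, made by the authors. Per the submitters' processing notes the build is mm10 and the tools include FastQC 0.11.2, STAR and StringTie, with settings not given in the sources used here. Rows naming no gene numbered 0, and no 2 libraries held identical counts. The study's methods give 3 mice per group, littermates across genotypes, without tying a library to a litter.

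Counts were scaled by TMM within a tissue and tested with edgeR 4.0.16 (robust quasi-likelihood, filterByExpr) in R 4.3.3, with 6 libraries per genotype contrast, 12 for contrasts of tissue, and Benjamini–Hochberg adjustment over all genes tested. Standard errors were taken from the F statistic of each gene. Groups were called apart where all 3 values of one lay beyond all 3 of the other. Exon lengths and positions came from GENCODE M21 (GRCm38), promoter letters from RefSeq (GRCm38.p6; 8 of 10 members, Trpm4 and Hvcn1 not). Members and lists were chosen with earlier results of these data known. Named genes were the members, those past the thresholds in each list or otherwise the most abundant, and the 5 most like Trpv4; the mechanosensitive, NADPH oxidase and potassium examples with no call, and Rcan1 set beside Trpv4, were chosen after their values were seen. Alternatives were RLE, upper-quartile or no scaling, no filter or a mean of 50 counts, DESeq2 1.42.0, a replicate block, each library left out, other sample sets and, added after seeing the data, counts per macrophage marker count and an exchange of the liver group names. A result of the lists is not reported here. Only the edgeR fits of genotype in each tissue and of BMDMs against livers in Tshrf/f were run on simulated data. DESeq2, the genotype difference between tissues, the ratios and the rule for groups apart were not. Tables used Python with pandas.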

Additional observations from a re-analysis of the deposited data

Results flagged for a closer look

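The genotype effects on Trpv4 in BMDMs and in liver, as labelled, had opposite signs. The difference between them was 2.60 (SE 0.48, log2). All 3 TshrMKO BMDMs lay above all 3 Tshrf/f BMDMs, and all 3 livers labelled TshrMKO lay below all 3 labelled Tshrf/f. With the liver group names exchanged, as the supplement's receptor table would have them, the liver value would be 1.38 and the difference −0.18. In liver the difference rests on 8 to 49 counts per library. Trpv4 had been picked with results of these libraries known, so no p-value is given.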

How the results depend on the processing

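The Trpv4 genotype difference kept its sign in BMDMs under every alternative run. In liver it did so under every one but the exchange of the liver group names (added after seeing the data). That exchange by construction gave 1.38 in liver and −0.18 for the difference between tissues. Because the Trpv4 groups did not overlap in either tissue, the sign with a library left out was largely fixed beforehand and adds little. In BMDMs 2 members instead of 1 passed the thresholds of the study with upper-quartile scaling, DESeq2, all 12 libraries in 1 fit or the replicate block, and 1 to 2 with a library left out; DESeq2 called 1 after adjustment. In liver 0 instead of 1 passed with the block, with the letter that opens the sample ID as covariate, or at a mean of at least 50 counts (where Trpv4 was not tested), and 0 to 1 with a library left out. For the genotype difference between tissues, 1 instead of 2 passed without TMM or at a mean of 50 counts and 1 to 3 with a library left out, and after adjustment DESeq2 called 1 instead of 0 and the fits with a library left out 0 to 1.

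Members near 0 changed sign. In BMDMs Piezo1 was at 0.048 with upper-quartile scaling and 0.19 without TMM. In liver Trpm4 was at 0.0117 with upper-quartile scaling, 0.0331 without TMM, 0.0131 without the filter, 0.00269 at a mean of 50 counts and 0.0141 with 12 libraries. With a library left out the log2 fold change ran in BMDMs from −0.19 to 0.20 for Piezo1, −0.50 to 0.15 for Trpm2 and −0.0071 to 0.25 for P2rx4. In liver it ran from −0.28 to 0.12 for Trpm4, −0.50 to 0.33 for Trpv2, −0.65 to 0.067 for Trpm2, −0.59 to 0.061 for Piezo1, −0.92 to 0.61 for Kcnn4, −1.04 to 0.27 for Hvcn1 and −0.0045 to 0.077 for Trpm7. For the difference between tissues it ran from −0.12 to 0.55 for Piezo1, −0.19 to 0.54 for Trpm2, −0.93 to 0.42 for Hvcn1 and −0.25 to 0.61 for Trpv2. Causes were not tested.

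Samples of the same number did not deviate together (r 0.01 to 0.10 in BMDMs, −0.06 to 0.22 in livers), so the numbers were not taken as pairs. With the replicate block the Trpv4 values were 1.20 and −1.36, and the BMDM excess over liver of Trpm2 in both genotypes and of Trpm4 in Tshrf/f lost its call. Without the block, the Trpm2 call was also lost in Tshrf/f without any 1 of 4 libraries (Tshrf/f BMDM replicate 1 or 2, Tshrf/f liver replicate 1 or 3) or with the 6 Tshrf/f libraries alone, and in TshrMKO without BMDM or liver replicate 3, and Trpm4 was called in TshrMKO with upper-quartile scaling, without TMM, without the filter, with DESeq2, with the 6 TshrMKO libraries alone and without Tshrf/f BMDM replicate 1 or 3 or TshrMKO liver replicate 1.

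Over all genes, those past the thresholds fell from 1356 in BMDMs to 828 without Tshrf/f replicate 3 and 858 without TshrMKO replicate 1. They rose to 1986 without Tshrf/f replicate 2 and 1637 without Tshrf/f replicate 1. In liver the 233 became 452 without Tshrf/f replicate 2, 351 with 12 libraries, 416 without the filter and 125 at a mean of 50 counts. After adjustment edgeR called 0 genes in BMDMs and in liver and DESeq2 1223 and 269, while edgeR with 12 libraries called 150 in BMDMs. For the difference between tissues edgeR called 1, DESeq2 774 and edgeR 0 to 341 with a library left out. At 8 to 49 counts, the liver values of Trpv4 carry a larger relative counting error than its BMDM values.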
